A study of Mus musculus with 4 samples.

Results

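Mouse osteoclasts that had matured while resorbing dentin (mOCd) were compared with osteoclasts of the same age in culture that had matured on plastic (mOCp). The comparison uses 2 of the 4 arrays of the series, 1 for each surface, and covers all 18193 genes that the array names singly. For each gene the probe set brightest on average across all 4 arrays (in log2) stood for it. The genes compared were thus not chosen by their difference between the surfaces, but those named below were in part chosen by it. All RNA came from cultures of C57BL/6 marrow, from mice aged 8 to 10 weeks. M-CSF at 100 ng/ml for 3 days gave macrophages (BMM), and 2 days with RANKL, also at 100 ng/ml, gave mononuclear pre-osteoclasts that stained for TRAP, an acid phosphatase of osteoclasts (pOC). Those pre-osteoclasts were divided between a plastic plate and dentin slices and kept for 2 more days under the same cytokines, after which both cultures held multinucleated cells. The surface is therefore the labelled difference between mOCd and mOCp, while BMM and pOC served here to choose and group probe sets and to show each gene's earlier level. Every group was a single array of bulk RNA, and the sources used here do not say how many mice, cultures or slices supplied it. No replicate spread exists, so no p-value or standard error can be given, and each difference below is one between 2 RNA samples.

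Osteoclasts are macrophage-lineage cells that fuse under M-CSF and RANKL and attach to mineralised matrix through integrin αvβ3, which organises a ring of actin-rich podosomes. On mineral that ring seals off a pocket beneath the cell. A ruffled membrane there secretes protons through the V-ATPase and releases proteases such as cathepsin K, and the growth factors and minerals freed from the matrix, together with factors the osteoclast secretes, act on cells that form bone. Osteoclasts on plastic fuse and express the resorption enzymes, but have no matrix to dissolve.

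Osteoclasts on dentin and on plastic had nearly equal levels of most genes, the resorption genes among them. On dentin, values were higher for the secreted protein Cthrc1, the integrin β3 subunit Itgb3, the calcineurin regulator Rcan2, and the TGF-β and BMP response genes Id2, Smad7 and Pmepa1. Id2, Smad7 and Pmepa1 do not stand for their list, whose median log2 ratio was -0.04 over 22 measured and 0.48 over 14 eligible members. Values were lower for complement C1q, Fc receptors, other macrophage genes, 3 of 8 eligible interferon-response genes and arginase 1. A gene was called higher or lower when its ratio was at least 2-fold and the brighter of its values reached the 75th percentile of that array, and 6915 genes had a value bright enough to be called. Of these, 149 were called higher on dentin, 2.15% of the 6915, and 176 were called lower, 2.55%, which makes 4.7% in either direction. The median log2 ratio over the same genes was 0.01 (upper end of the range holding 95% of them 0.95, lower end -1.004), and 83.2% lay within 1.5-fold. Only 14 called genes were at least 4-fold higher and 12 at least 4-fold lower. Ratios were computed after values under the median of an array's non-control probe sets, its floor, had been set to that floor, which was 14.8 in mOCp and 15.8 in mOCd. A ratio with 1 value at the floor is a bound, written as at least N-fold, and where both did no ratio is given. Scaling both arrays to the spike-in controls turned the balance to 193 higher and 146 lower. The calls closest to the threshold had ratios of 2.01 (higher) and 2.00 (lower), while the nearest genes outside it stood at 2.00 and 1.99.

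**Figure D1:**
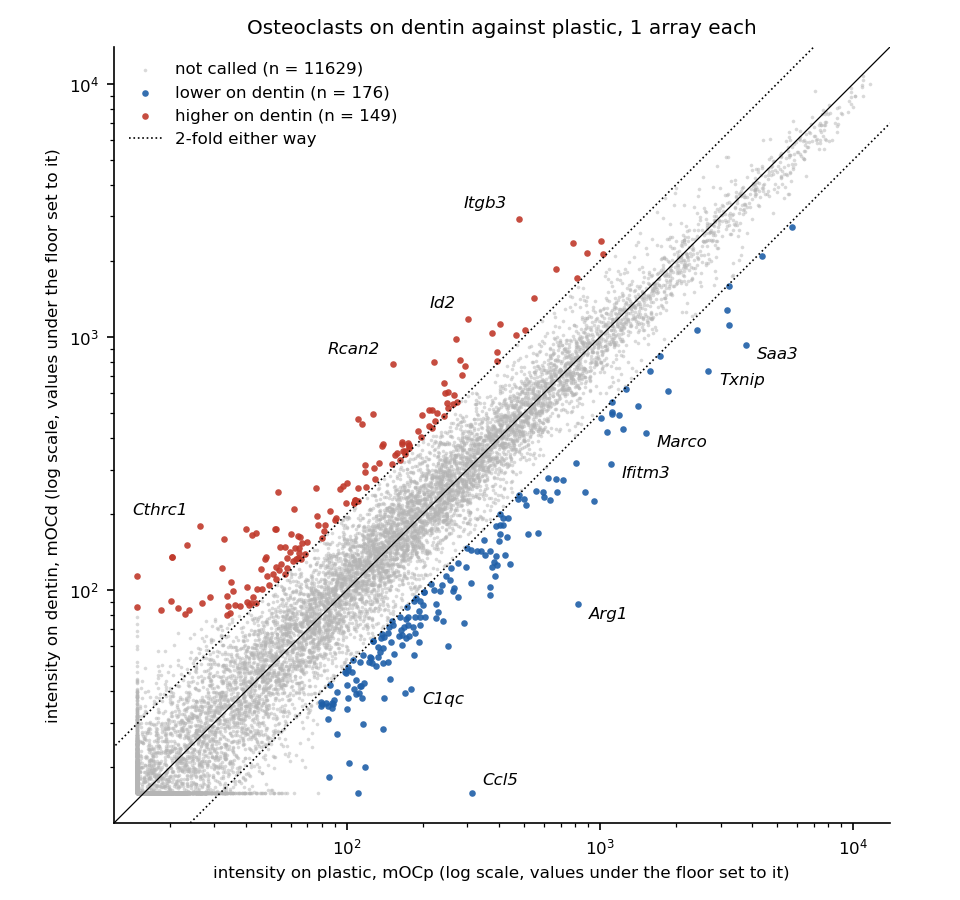
Intensity on plastic (mOCp, x axis) against dentin (mOCd, y axis), both on log scales, for each gene above the floor on at least 1 of the 2 arrays. Red points are the 149 genes called higher on dentin, blue points the 176 called lower and grey points the rest. The solid line marks equal values and the dotted lines 2-fold, and most genes lie along the diagonal, with Itgb3 and Arg1 among those farthest from it.

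As facts of the 4 arrays, Pearson's r of log2 intensity between mOCd and mOCp was 0.970 over the 9919 genes above both floors, against 0.902 between mOCd and pOC and 0.918 between mOCp and pOC (each an r across genes, and genes are no independent replicates). The arrays had been scaled to the same trimmed mean. Spike-in controls differed between mOCd and mOCp by -0.19 to 0.07 on the log2 scale. The 3' over 5' signal of the transferrin receptor control, a sign of RNA length, was 1.70 (log2) in mOCd against 0.84 in mOCp, 1.00 in BMM and 1.01 in pOC, while the same ratio of actin and GAPDH differed between mOCd and mOCp by 0.08 and -0.04. The part of RNA length in any result below was not tested.

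With single arrays, the remaining guide to error was the agreement of different probe sets for the same gene. Their log2 ratios differed with an SD of 0.42 per probe set (4179 bright pairs), which covers probe behaviour and transcript forms but not the spread between cultures. Another probe set above the floor was present for 168 called genes, and in 145 of them, 86.3%, the further probe sets pointed the same way on average. The share was 85.9% for genes called higher (79 of 92) and 86.8% for those called lower (66 of 76). Ratios of further probe sets were floored in the same way, so some are bounds. A mean ratio of at least 2-fold on the further probe sets was reached by fewer, 29 higher and 27 lower genes. Agreement rose with brightness, from 77.6% in the dimmest of 4 equal brightness groups of eligible genes to 93.8% in the brightest. Every probe set above the floor showed at least 2-fold in the same direction for 23 higher and 22 lower genes with at least 2 such probe sets. By the size of their least ratio, the 10 leading higher genes were Anxa8, Tmem26, Pmepa1, Rcan2, Ak5, Wdr19, Pdgfa, Id2, Snx18 and Smad7. The 10 leading lower genes were Txnip, Marco, Ncf1, Selenbp1, Niban1, Tapbp, Glrx, Bst1, Itgal and Fyb.

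**Figure D2:**
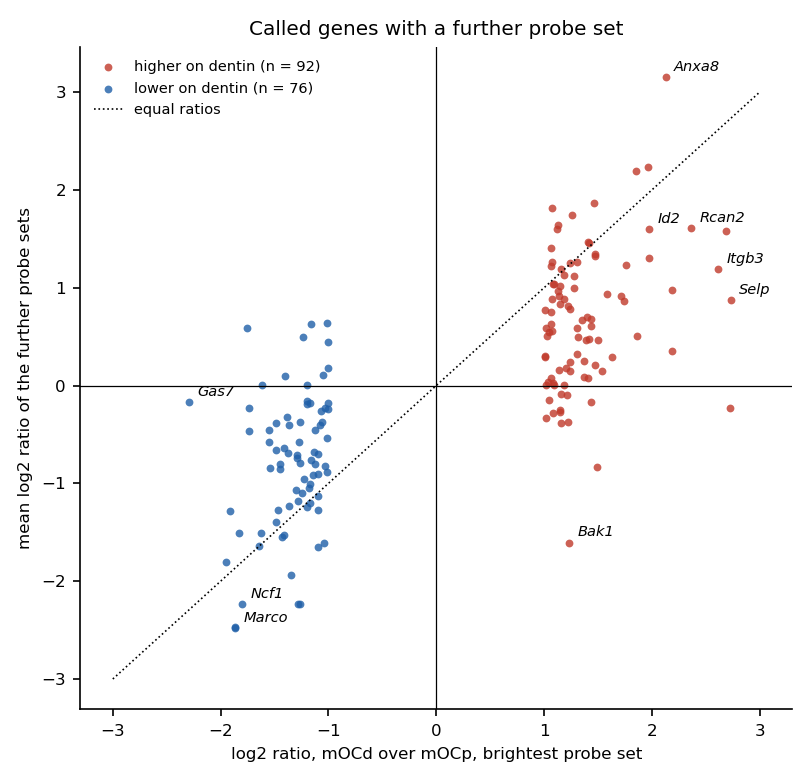
The log2 ratio of mOCd over mOCp on the brightest probe set (x axis) against the mean log2 ratio of the gene's further probe sets (y axis) for the 168 called genes that have one, red for the 92 higher and blue for the 76 lower on dentin. The dotted line marks equal ratios. Most points lie on the same side of zero on both axes, Gas7 lies near zero on the y axis, and Bak1 lies on the opposite side.

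A second property of the mOCd array was a skew towards higher values in probe sets that did not stand for a gene in the calls. Among the probe sets without a listed gene, 144 of 623 eligible were at least 2-fold higher on dentin (23.1%) and 18 were lower (2.89%). In mOCp against pOC such probe sets gave 55 higher and 69 lower of 516. Further probe sets of named genes behaved alike when they were much dimmer than the gene's brightest one on the pOC array. Of those more than 16-fold dimmer, 38 of 109 were higher on dentin (34.9%) and 7 lower, although the brightest probe sets of the same genes had a median log2 ratio of 0.06. Of those less than 2-fold dimmer, 57 of 2329 were higher (2.45%) and 116 lower. Single genes show what this looks like: Snx10, a sorting nexin needed for the ruffled border, read 5565.2 on plastic and 6442.5 on dentin by its brightest probe set but 38.2 and 241.3 by a dim one. The V-ATPase subunit Atp6v1h read 2660.2 and 2719.0, against 33.9 and 184.6. The part of this skew in the 149 higher calls was not tested, and the probe sets behind each higher gene are given with it below.

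**Figure D3:**
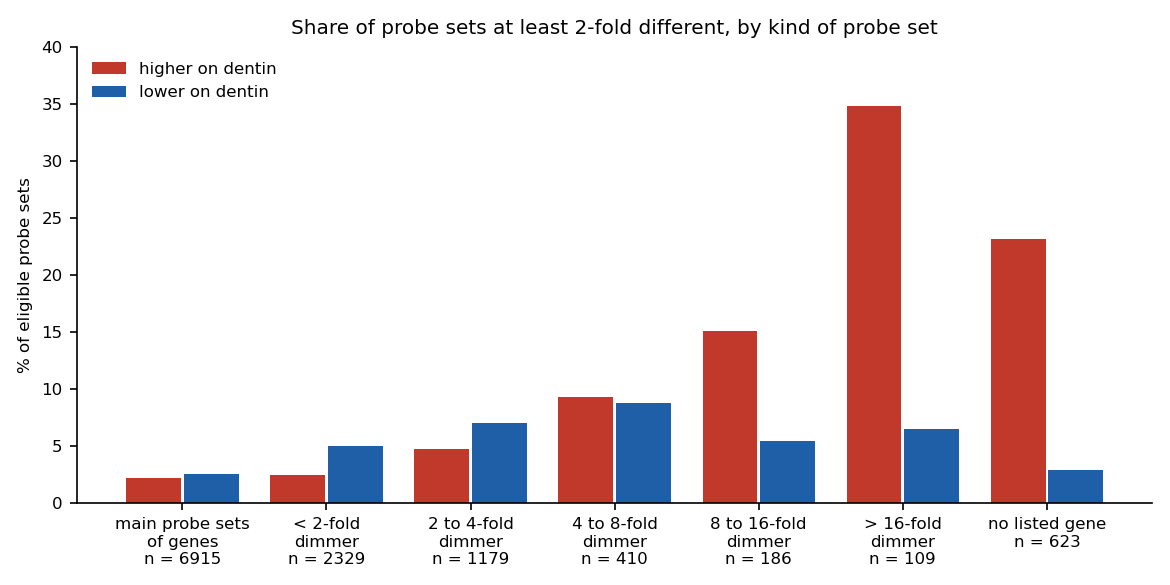
Share of eligible probe sets (y axis, %) that were at least 2-fold higher (red) or lower (blue) on dentin than on plastic, for the brightest probe set of each gene, for further probe sets grouped by how much dimmer than that one they were on the pOC array, and for probe sets with no listed gene. The number of probe sets is under each pair of bars, and the red bars rise from 2.45% to 34.9% as the further probe sets get dimmer.

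Among secreted or displayed factors proposed to couple resorption to bone formation, 3 of 11 eligible genes were called higher and 1 lower. Over all 6915 eligible genes 2.15% were called higher and 2.55% lower, the background for this and every later list count. All lists were chosen with earlier results of these data known. Cthrc1, which encodes a secreted protein with a short collagen-like repeat and is the gene the study's title names, read 11.8 (BMM), 4.0 (pOC), 26.4 (mOCp) and 179.9 (mOCd). BMM and pOC lay under the floor, plastic just above it, and dentin alone was bright, 6.81-fold above plastic. The array has 1 probe set for it, and the study may have chosen the gene on these arrays, so its direction is not independent evidence. Pdgfa, a platelet-derived growth factor chain, read 81.1 (BMM), 83.1 (pOC), 100.0 (mOCp) and 265.7 (mOCd), 2.66-fold above plastic, with a log2 ratio of 1.47 on its other probe set. The level was thus near its earlier values on plastic and stood above all of them on dentin. Lif, a cytokine that acts on osteoblasts, read 6.0, 89.4, 191.5 and 425.4 in the same order (log2 ratio 1.15, and 0.83 on the other probe set). Fstl1, a secreted follistatin-like protein that binds BMPs, read 200 on plastic and 397.5 on dentin, just under 2-fold, and its other probe set gave 1.54. Both earlier stages of Fstl1 were under the floor, at 0.5 and 1.1.

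Pdgfb, the other PDGF chain of that list, gave 1419.3 on plastic and 2371.1 on dentin (log2 ratio 0.74, and 1.02 on the other probe set) and was not called. Igf1, an insulin-like growth factor that macrophages express, went the other way: 3333.2 (BMM), 185.2 (pOC), 675.6 (mOCp) and 244.5 (mOCd), with log2 ratios from -1.57 to -1.13 on its 3 further probe sets. Sphk1, which makes sphingosine 1-phosphate, read 446.1 and 328.6, and Sema4d, a semaphorin that restrains osteoblasts, 2957.4 and 3157.4. Over its 14 measured members the list had a median log2 ratio of 0.17, so the members named here do not stand for the list. Vegfa, a vascular growth factor, read 217.2 on plastic and 513.5 on dentin, but its other probe set read 237.3 and 263.7.

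Integrin β3 was higher on dentin, and 2 leukocyte integrin chains were lower. Of 13 eligible integrin genes, 2 were called higher and 2 lower, against 2.15% and 2.55% of all eligible genes. Itgb3, the β3 subunit of αvβ3, read 1.0 (BMM), 92.1 (pOC), 480.8 (mOCp) and 2939.3 (mOCd), 6.11-fold above plastic. Its other probe set read 2.7, 56.1, 167.9 and 382.6, a log2 ratio of 1.19. Both probe sets put dentin above every other stage, with sizes that differ by more than the probe-set SD. Itgav, its α partner, read 4420.7 on plastic and 5999.5 on dentin (log2 ratio 0.44), and its 4 further probe sets ran from -1.46 to 0.74. Itga2, an α subunit that pairs with β1 to bind collagen, read 33.8 and 79.9, at the dim edge of the eligible range. The leukocyte integrin chains were the lower ones. Itgal, the α chain of LFA-1, read 174.4 on plastic and 72.8 on dentin with -2.23 on its other probe set, and Itgam, the α chain of complement receptor 3, read 368.4 and 142.7. Their common β chain Itgb2 read 3826.5 and 2579.4.

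The podosome and sealing zone list was mixed, with 1 of 28 higher, 2 lower and a median log2 ratio of 0.03. Cttn (cortactin, an actin-branching regulator) read 2435.5 on plastic and 2802.9 on dentin, and Src, the kinase without which osteoclasts do not form a ruffled border, 231.8 and 374.5 (0.69, with 0.61 on the other probe set). The called members were Wasl (higher) and Evl and Dnm2 (lower), and the calls of Wasl and Dnm2 rest on discordant probe sets. Wasl, an N-WASP gene that drives actin nucleation, had 1.04 on its brightest probe set and 0.04 to 0.99 on 3 others, and Dnm2, a dynamin, had -1.27 against -0.68 to -0.17 on 5 others. Snx18, a membrane-remodelling sorting nexin, read 403.8 on plastic and 1122.2 on dentin, with 1.35 on its other probe set.

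TGF-β and BMP signals end on Smad proteins, and their targets include feedback inhibitors and the Id proteins, which bind and block helix-loop-helix factors. In that list 3 of 14 eligible genes were called higher and 0 lower, against 2.15% and 2.55% of all eligible genes. The median log2 ratio was -0.04 over 22 measured members. Scaling to the spike-ins turned this median to 0.04 and other settings to values from -0.13 to 0.14. Id2 read 1783.9 (BMM), 232.3 (pOC), 300.7 (mOCp) and 1182.5 (mOCd), 3.93-fold above plastic, with 1.8 and 1.41 on its other probe sets, the last of them a bound. Without probe sets of suffixed identifier, that dim one (8.6 on plastic, 39.2 on dentin) alone was left, too dim to be called. Dentin thus lay much nearer the macrophage level than plastic did. Smad7, which inhibits TGF-β receptors, read 35.7, 66.9, 42.1 and 165.0 in the same order, 3.92-fold, with 1.30 on its other probe set. Pmepa1, a membrane protein induced by TGF-β that dampens its signal, read 72.5, 387.0, 221.1 and 797.1, 3.61-fold, and its other probe sets gave 1.92 and 2.47. All 8 probe sets of these 3 genes were at least 2-fold higher on dentin.

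Other members of the list did not follow them. Id1 read 58.2 on plastic and 24.3 on dentin and Id3 123.6 and 64.5, both lower, at levels where Id1 was too dim to be called. Tgfbi, a matrix protein induced by TGF-β, read 344.6 and 193.0, with further probe sets from -1.01 to -0.50. The receptors Tgfbr1 and Tgfbr2 had log2 ratios of 0.71 and 0.95 on their brightest probe sets but -0.94 to -0.30 and -0.11 on the others. Skil, a Smad co-repressor, likewise had 0.99 and -0.52. Over the 14 eligible members the median log2 ratio was 0.48, with 9 above zero and 5 below, so the median over all measured members and that over the brighter ones differ in sign. Loess or spike-in scaling called 5 of the 14 higher and 0 lower, and quantile normalization 4 higher and 1 lower. Without probe sets of suffixed identifier, 2 of 12 eligible members were higher and 1 lower. Among repressors of osteoclast formation, a list that shares the Id genes, Id2 was the 1 higher member of 7, and Irf8, which holds cells in the macrophage state, read 52.4 and 39.4.

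RANK drives the NFATc1 transcription factor through calcium and the phosphatase calcineurin, which the RCAN proteins regulate. Of 16 eligible calcineurin and NFAT genes, 2 were called higher, against 2.15% of all eligible genes. The median log2 ratio was 0.37 over 19 measured members. Rcan2 read 0.3 (BMM), 7.2 (pOC), 151.7 (mOCp) and 780.4 (mOCd), 5.14-fold above plastic, with 1.61 on its other probe set. Rcan1 read 859.2 on plastic and 1448.5 on dentin (0.75, and 0.45 on the other probe set). Rcan3 was called from 139.6 and 378.0, but its other probe set gave -0.17. Nfatc1 itself read 1971.8 on plastic and 3330.6 on dentin, and all 5 of its probe sets were higher on dentin, with log2 ratios from 0.32 to 0.79, below 2-fold.

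None of the 20 eligible genes of RANK signalling and osteoclast transcription factors was called. Their median log2 ratio was 0.20, against 0.01 over all eligible genes, and 0.33 over the 21 measured members. The values above zero included Ppargc1b, a mitochondrial coactivator (593.1 on plastic, 1156.5 on dentin), Traf6, the RANK adaptor (174.8 and 322.7), Prdm1, which represses anti-osteoclast genes (608.1 and 1010.3), and Fos (2472.7 and 3853.3). Jun, Junb and Myc lay below zero, at -0.58, -0.35 and -0.44. The median over measured members ran from 0.10 to 0.41 over the other processing settings. Egr1, an immediate early gene, was called from dim values, 22.9 and 80.4, and was the 1 higher gene of 14 in its list.

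The machinery of resorption itself was at nearly equal levels on the 2 surfaces. Of 12 genes that define osteoclasts, Itgb3 alone was called. Ctsk, encoding cathepsin K, read 22.5 (BMM), 8026.2 (pOC), 10886.4 (mOCp) and 9744.5 (mOCd). Acp5, encoding TRAP, read 9801.2 on plastic and 8858.4 on dentin, and the metalloproteinase Mmp9 10970.8 and 10789.8. These 3 lie at or near the top of both arrays, whose highest values were 11672.4 and 10789.8, and saturation, which could hide a difference between them, was not tested. The fusion proteins Dcstamp (4619.2 and 4200.6) and Ocstamp (3605.3 and 3773.6) and the calcitonin receptor Calcr (283.1 and 305.3) were alike, so both arrays carry the markers of their labels at similar strength. Of 16 eligible V-ATPase subunits 0 were called and the median log2 ratio over 17 measured members was -0.01. The osteoclast proton pump subunits Tcirg1 (4052.3 and 4016.9) and Atp6v0d2 (5184.0 and 5145.3) were as close.

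Acid transport beside the pump was not called either. Among 10 eligible genes the median log2 ratio over 11 measured members was 0.21, with higher values for Ostm1, the β subunit of the chloride exchanger (1435.2 on plastic, 2573.0 on dentin), Slc9b2, a sodium-proton exchanger (3193.5 and 5149.5), and Slc4a2, the bicarbonate-chloride exchanger (2347.8 and 3261.5). Clcn7, the chloride exchanger that partners with Ostm1, read 2634.1 and 2916.0. In the resorption protease list 0 of 19 were higher and 2 lower, and both are lysosomal proteases also expressed by macrophages. Ctss (cathepsin S) read 3233.1 and 1599.0, and Ctsc (cathepsin C) 1419.5 and 532.9 with -0.64 on its other probe set. Lysosomal proteins (19 eligible, median -0.14), vesicle traffic genes (22 eligible, median 0.02) and calcium and phosphate handling genes (13 eligible, median 0.11) had 0 calls. With their dim members the medians of the last 2 lists were -0.06 and -0.09, so they have no settled sign. Rab38, a GTPase of lysosome-related organelles, came closest, at 821.8 and 1579.1 with 0.94 on both of its probe sets.

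**Figure D4:**
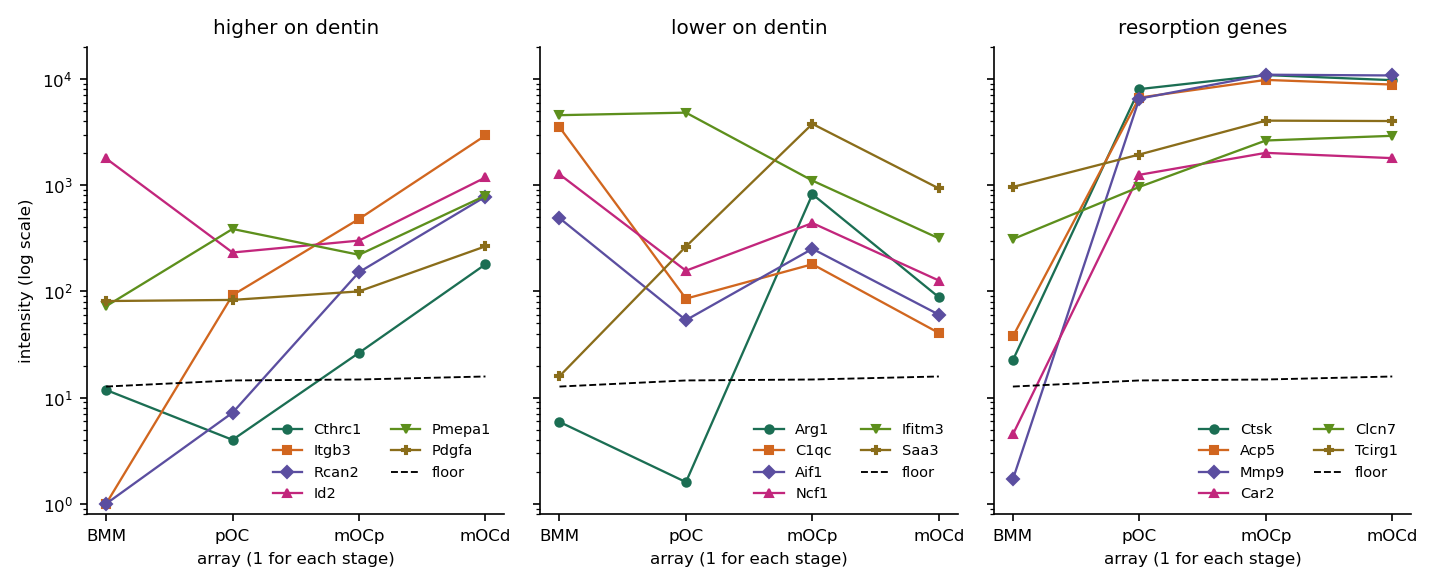
Intensity (log scale, y axis) of 6 genes called higher on dentin, 6 called lower and 6 genes of resorption on the 4 arrays in culture order (x axis), 1 array each, with values under 1 drawn at 1. The dashed line is the floor of each array. Itgb3 goes from 480.8 on plastic to 2939.3 on dentin and Arg1 from 821.7 to 88.1, while Ctsk and the other resorption genes are nearly level between mOCp and mOCd.

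Macrophage immune genes were lower on dentin, in particular complement C1q, Fc receptors and scavenger receptors, and of all 52 lists the Fc receptor and complement genes had the lowest median. In the Fc receptor and complement list 9 of 13 eligible genes were called lower and 0 higher, against 2.55% lower among all eligible genes. The median log2 ratio was -1.39 over 14 measured members. This list and the macrophage markers below were chosen with earlier results of these data known, so their counts describe them and test nothing. The 3 chains of C1q, the complement starter that macrophages make, were all lower. C1qa read 3372.4 (BMM), 41.9 (pOC), 108.9 (mOCp) and 38.9 (mOCd). C1qb read 4605.6, 146.7, 368.7 and 95.7, with -2.42 and -1.18 on further probe sets, and C1qc 3518.3, 85.4, 180.1 and 40.6, 4.44-fold below plastic. For each chain plastic lay above the pre-osteoclast level. Dentin lay below that level for C1qb and C1qc and close to it for C1qa. Fcgr3, an activating IgG receptor, read 1718.9, 177.7, 291.2 and 74.0, and Fcgr2b, the inhibitory one, 305.9, 339.2, 431.2 and 162.1 with -1.83 to -1.17 on 3 further probe sets above the floor. C5ar1, the C5a receptor, read 274.9 on plastic and 94.2 on dentin, with -0.84 on a further probe set, under 2-fold. Cfb, a complement factor, read 111.3 on plastic and lay under the floor on dentin, at least 7.04-fold lower. Cr1l, a complement regulator, was level, at 440.2 and 446.0.

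Of 17 eligible macrophage markers 10 were called lower and 0 higher, at a median log2 ratio of -1.08 over 23 measured members, of which 6 (Itgam, Fcgr1, Fcgr3, C1qa, C1qb and C1qc) are also in the list above. Aif1, an actin-binding protein of macrophages, read 490.0 (BMM), 53.6 (pOC), 251.8 (mOCp) and 60.4 (mOCd). Adgre1, the F4/80 antigen, read 1581.9, 319.6, 1191.3 and 491.4. Marco, a scavenger receptor, read 56.3, 35.8, 1527.0 and 419.0, with -2.48 on its other probe set, so this marker was bright in mature cultures alone. Msr1, another scavenger receptor, read 2342.9, 682.4, 871.9 and 245.1, and its 3 further probe sets gave -1.74 to -1.13. Mpeg1, a pore-forming macrophage protein, read 1233.9 on plastic and 432.6 on dentin. In contrast Csf1r, the M-CSF receptor that osteoclasts keep, read 7511.7 and 7644.1, and Cd68 and Lyz2, lysosomal markers of the lineage, 8622.9 and 7367.1, and 8050.6 and 5970.7.

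In bulk RNA, fewer cells of a type and less RNA per cell cannot be told apart, and neither array says how many mononuclear cells were left beside the osteoclasts. The summed intensity of the 24 macrophage markers on the array was 55792.0 (BMM), 27320.6 (pOC), 43721.1 (mOCp) and 33310.6 (mOCd). It lay higher on plastic than on dentin, and the part of macrophage content in the lower genes was not tested. That of the 12 osteoclast markers was 52548.4 on plastic and 53989.3 on dentin.

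Sensors and scavenger receptors followed with 3 of 16 eligible lower and 15 of 16 below zero (median log2 ratio -0.59 over 23 measured members). Besides Marco and Msr1 the third was Stab1, a clearance receptor, at 79.4 on plastic and 34.9 on dentin. Cd14, the lipopolysaccharide co-receptor, read 1387.3 and 735.9, and Tlr2 145.9 and 86.7. A further list was built around receptors that signal through ITAM adaptors and also holds kinases and other receptors such as Pirb. In it 3 of 14 were lower, namely Trem2 (295.6 and 123.5), Pirb (593.7 and 245.0) and Sirpb1a (116.0 and 29.5). The osteoclast receptor Oscar (2362.9 and 2641.6), the adaptor Tyrobp (5871.6 and 5297.6) and the kinase Syk (805.2 and 1059.2) were not called. In the cell fusion list Cd9 and Cd81, tetraspanins that restrain macrophage fusion, were the 2 lower genes of 9, at 4360.1 and 2095.5, and at 385.5 and 113.9. The calls of Cd9 and of cathepsin S were lost with spike-in, loess or quantile scaling.

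All 12 eligible chemokine and cytokine genes lay below zero, 4 of them called lower, against 2.55% of all eligible genes. The median log2 ratio was -0.43 over 26 measured members. Ccl5, a T cell and monocyte attractant, read 27.1 (BMM), 167.3 (pOC), 311.9 (mOCp) and 3.5 (mOCd). The dentin value lay under the floor, so the gene was at least 19.7-fold lower there, on 1 probe set. Ccl2, a monocyte attractant, read 5256.7, 231.9, 225.3 and 88.6, and Ccl6 574.1, 136.8, 126.2 and 51.6. Il1rn, the interleukin 1 receptor antagonist, read 194.4, 399.8, 518.2 and 166.3, with -2.12 and -1.15 on further probe sets. Ccl9, the chemokine that osteoclasts make in quantity, was not called (5861.5 and 5006.9). Among receptors, Ccr3 was the 1 called higher of 14, at 176.3 and 373.4.

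Interferon-response genes were dim on both mature arrays, so 8 of the 28 on the array could be called. All 8 lay below zero and 3 were called lower, against 2.55% of all eligible genes. The median log2 ratio was -0.79 over 22 measured members. Ifitm3, an antiviral membrane protein, read 4561.7 (BMM), 4820.1 (pOC), 1104.1 (mOCp) and 315.7 (mOCd), 3.50-fold below plastic. Ddx58, the RNA sensor RIG-I, read 499.1, 347.2, 100.0 and 34.1, with -0.58 on its other probe set. Psmb9, an immunoproteasome subunit, read 407.3, 235.2, 138.4 and 67.3. Each was lower on plastic than in pOC and lower again on dentin. Irf7 and Rtp4, at 61.8 and 77.2 on plastic, were under the floor on dentin and too dim to be called. Class I antigen presentation, which shares Psmb9 with that list, ran the same way, with 9 of 9 eligible genes below zero, 2 lower and a median of -0.60, or -0.82 over 11 measured members. The 2 lower genes serve peptide supply and loading, and no class I chain was called. Tapbp (tapasin, which loads peptide) read 636.1 on plastic and 227.6 on dentin, with -1.40 on its other probe set, and B2m 6538.2 and 4327.0. The class I heavy chains H2-K1 (3544.6 and 2012.8) and H2-D1 (4262.3 and 3284.9) are near-identical genes whose probes may share signal. With the spike-in scaling Psmb9 was not called.

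Among motifs searched in the promoters, the interferon-stimulated response element had the highest ratio of its share in the lower genes to its share in eligible genes. In RefSeq promoters of assembly GRCm38.p6, 250 bases before to 50 after each start, this element, GAAA followed after any 2 bases by GAAA, searched on both strands, stood in 12.5% of the 136 lower genes with an entry and in 1.77% of the 113 higher genes. It stood in 3.39% of the 5721 eligible genes and 3.99% of all 27025 genes in the table. The PU.1 motif GAGGAAGT, that of a myeloid factor, stood in 8.09% of lower, 3.54% of higher and 3.93% of eligible genes. The AP-1 motif TGANTCA stood in 10.3%, 8.85% and 6.03%. The Smad box CAGACA stood in 25%, 22.1% and 17.7%, and the NFAT core TGGAAA in 29.4%, 21.2% and 18.7%. The hypoxia core ACGTG stood in 20.6%, 29.2% and 31.9%. Over all 27025 genes the shares were 3.69% for PU.1, 8.97% for AP-1, 23.6% for the Smad box, 23.9% for the NFAT core and 21.8% for the hypoxia core. The AP-1, Smad and NFAT motifs stood in a larger share of both called groups than of eligible genes, but the shares in the higher genes were below those over all genes. These shares describe letters in these windows and were not tested. The following 5 promoters of lower genes are shown because they hold the response element or, in C1qc, the PU.1 motif, in capitals on the strand printed, 5' to 3'. Ncf1 and Cybb encode subunits of the phagocyte NADPH oxidase, and Cybb was chosen after its values were seen. Each stands on the minus strand, at chr7:141010695-141010994 (Ifitm3), chrX:9469275-9469574 (Cybb), chr5:134229576-134229875 (Ncf1), chr17:35176003-35176302 (Aif1) and chr4:136892865-136893164 (C1qc).
Ifitm3: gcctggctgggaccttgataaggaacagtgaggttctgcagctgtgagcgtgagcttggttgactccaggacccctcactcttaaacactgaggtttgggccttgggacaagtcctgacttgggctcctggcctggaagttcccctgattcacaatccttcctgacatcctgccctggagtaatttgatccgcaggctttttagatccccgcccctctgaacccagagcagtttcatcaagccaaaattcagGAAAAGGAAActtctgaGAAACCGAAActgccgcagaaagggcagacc
Cybb: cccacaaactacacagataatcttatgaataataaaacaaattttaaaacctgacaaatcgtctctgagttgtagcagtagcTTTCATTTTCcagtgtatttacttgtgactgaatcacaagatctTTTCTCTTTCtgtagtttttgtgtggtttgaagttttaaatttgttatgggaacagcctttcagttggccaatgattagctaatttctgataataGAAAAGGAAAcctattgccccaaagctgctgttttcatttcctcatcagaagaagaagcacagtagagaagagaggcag
Ncf1: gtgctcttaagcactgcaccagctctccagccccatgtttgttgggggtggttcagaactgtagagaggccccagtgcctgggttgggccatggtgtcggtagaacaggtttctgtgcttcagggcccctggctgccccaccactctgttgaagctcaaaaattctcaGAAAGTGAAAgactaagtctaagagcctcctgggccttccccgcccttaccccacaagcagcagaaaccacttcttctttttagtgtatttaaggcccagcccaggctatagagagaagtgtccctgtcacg
Aif1: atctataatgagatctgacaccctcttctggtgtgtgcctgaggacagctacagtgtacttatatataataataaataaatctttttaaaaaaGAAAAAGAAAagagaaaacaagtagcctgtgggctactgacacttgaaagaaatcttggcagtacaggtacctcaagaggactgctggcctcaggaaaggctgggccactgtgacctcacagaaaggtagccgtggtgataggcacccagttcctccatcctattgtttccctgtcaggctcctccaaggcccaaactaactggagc
C1qc: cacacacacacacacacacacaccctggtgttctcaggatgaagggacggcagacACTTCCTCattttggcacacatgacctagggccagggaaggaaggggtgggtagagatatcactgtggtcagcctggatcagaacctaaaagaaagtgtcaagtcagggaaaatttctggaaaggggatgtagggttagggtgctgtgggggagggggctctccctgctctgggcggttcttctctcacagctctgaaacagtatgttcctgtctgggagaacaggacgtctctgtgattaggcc

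The first base of each match lay at 3 and 20 after the start of Ifitm3, and at -168, -124 and -29 from the start of Cybb, the first 2 of these on the opposite strand. It lay at -82 in Ncf1 and -157 in Aif1, and the PU.1 match of C1qc lay at -195 on the opposite strand. Ncf1 read 1265.7 (BMM), 156.6 (pOC), 439.9 (mOCp) and 126.5 (mOCd), 3.48-fold below plastic, with -2.42 and -2.05 on its further probe sets. Cybb read 2449.8, 877.1, 2416.6 and 1071.3, with -1.79 and -0.60. For both oxidase genes plastic stood above the pre-osteoclast value and dentin close to it.

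The lowest ratio measured above both floors was that of Arg1, the arginase of tissue-repair macrophages, which read 5.9 (BMM), 1.6 (pOC), 821.7 (mOCp) and 88.1 (mOCd). It was under the floor at both earlier stages, bright on plastic and 9.33-fold lower on dentin, on 1 probe set. Saa3, an acute-phase protein, had a like course, at 15.9, 264.5, 3779.6 and 931.7, and so had Pmaip1, the cell death protein Noxa, at 93.3, 71.5, 952.0 and 224.4. Txnip, a thioredoxin inhibitor that responds to glucose, read 894.1, 517.7, 2684.1 and 735.7, with -2.47 on its other probe set. These genes were named for the size of their ratios, so that size is no separate evidence. Saa3 and Pmaip1 rest on 1 probe set above the floor. In Txnip, dentin lay between the pOC and BMM values. Lower values with agreeing probe sets were also measured for Glrx, a glutaredoxin (1069.8 and 420.2), Bst1, an ectoenzyme (160.5 and 65.8), Fyb, an adaptor of integrin signalling (602.9 and 233.2), Selenbp1 (192.8 and 62.3) and Niban1 (101.4 and 37.7). Rnase4 (117.8 and 20.1), Max, the partner of Myc (102.0 and 20.8), Klra2 (84.9 and 18.3) and Tnfrsf23 (169.9 and 39.3) rest on 1 probe set above the floor. Gas7 was called from 138.6 and 28.2, but its other probe sets gave -0.24 to -0.04.

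On the higher side, Anxa8, a calcium-binding annexin, read 7.1 (BMM), 39.9 (pOC), 40.0 (mOCp) and 174.8 (mOCd), 4.37-fold above plastic, with 3.15 on its other probe set. Ak5, an adenylate kinase, read 3.0, 10.1, 23.3 and 150.4, with 1.58 on the other probe set. Tmem26 read 83.7, 401.5, 127.2 and 497.6, with 2.24, so plastic stood apart from both pOC and dentin. Selp (P-selectin) read 20.4 on plastic and 135.8 on dentin, with 0.41 and 1.35 on probe sets near the floor. H6pd, a dehydrogenase of the endoplasmic reticulum, read 110.8 and 473.1 and Tspoap1 32.8 and 158.9, on 1 probe set each. Wdr19, a component of primary cilia, read 60.3 and 166.1, with 1.87 on its other probe set. Several of the highest ratios had weaker support. Tmem86b (20.4 and 135.0) had -0.23 on its other probe set and Taf15 (18.4 and 83.9) 0.36. Kcnq1ot1, a nuclear antisense RNA, read 53.6 and 243.6 with 0.50 and 1.45, and Med18, a Mediator subunit, 20.3 and 90.8. Dock6 and Nos1ap were under the floor on plastic and read 113.5 and 85.7 on dentin, at least 7.67-fold and 5.79-fold higher. Bak1, a cell death gene, was called from 62.7 and 147.3, but its other probe set read 48.1 and 9.3.

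Metabolic lists differed little. Among cholesterol synthesis and uptake genes 15 of 18 eligible lay above zero, with a median log2 ratio of 0.35 (0.37 over 19 measured members), and 1, Stard4, was called, at 79.9 and 160.7, a call lost with quantile or loess normalization and with the mean over probe sets. Cyp51, a demethylase of that pathway, read 179.8 and 294.3, and Hmgcs1, which feeds it, 1078.5 and 1693.7. In the efflux list, targets of the liver X receptor, 2 of 9 were lower, namely the transporter Abcg1 (165.6 and 60.8) and Pltp (309.0 and 144.7), and Abca1 read 530.6 and 345.4 with further probe sets at -2.52 and -1.63. In the hypoxia list 2 of 17 were higher and 1 lower. Ddit4, an inhibitor of mTORC1, read 40.4 and 103.4, Vegfa is described above, and Ndrg1 read 415.2 and 193.8 with -1.74 to -1.04 on 4 further probe sets. Bnip3 (3637.7 and 3884.1) and Slc2a1 (1969.6 and 2246.0), which hypoxia also induces, were level.

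None of 16 eligible glycolysis genes or 24 oxidative phosphorylation genes was called, with medians of -0.07 in each. The zinc exporter Slc30a1 was the 1 called gene of 10 in the metallothionein and zinc list, at 279.9 and 814.0 with 0.15 on its other probe set, while Mt1 read 4107.8 and 4244.8. Unfolded protein response (18 eligible), NRF2 (14), heat shock (10), ATF4 target (15) and fatty acid genes (14) had 0 calls. Mitosis genes, dim in both cultures, had 1 lower call of 13 (Tpx2, 136.0 and 65, with further probe sets from -0.93 to 0.32), and DNA replication genes had 0 of 14. Cytosolic ribosomal protein genes had 0 calls of 15, yet all 15 lay below zero, at a median log2 ratio of -0.30. With the spike-in scaling, the setting that raised dentin most, every list named in this paragraph kept the sign of its median except where that median lay within 0.1 of zero. The V-ATPase median moved from -0.01 to 0.07.

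**Figure D5:**
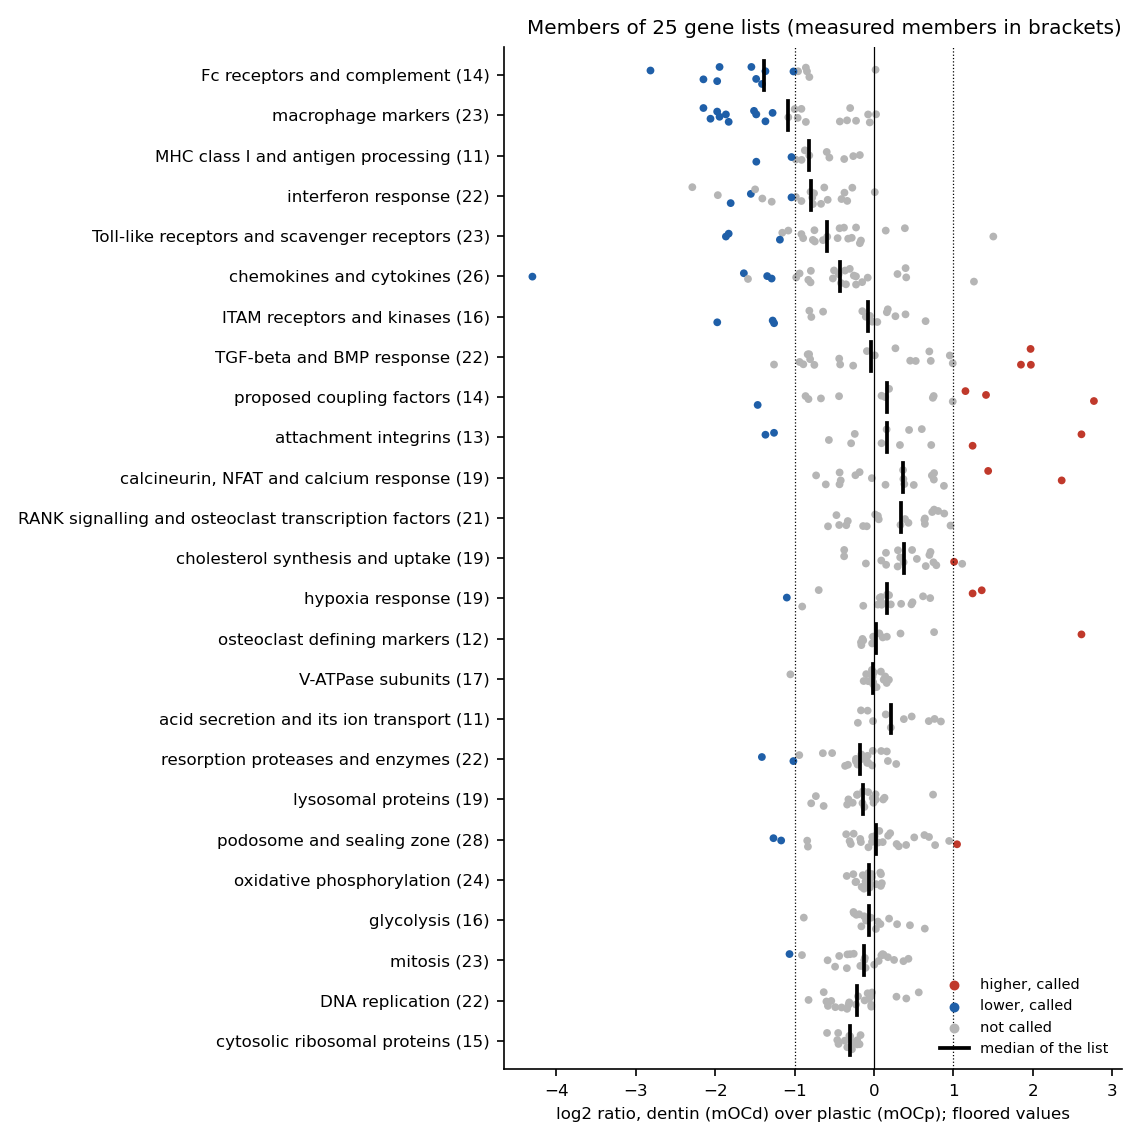
Log2 ratio of mOCd over mOCp (x axis) for the measured members of 25 gene lists, 1 point per gene, red if called higher, blue if called lower and grey if not called. Black bars mark each list's median, the solid line 0 and the dotted lines 2-fold. Fc receptor and complement genes lie farthest to the left (median -1.39), and V-ATPase subunits lie tightly around zero.

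Markers of stromal, lymphoid and endothelial cells were low on both arrays, while some neutrophil and platelet genes were not. Of 20 stromal, osteoblast and odontoblast genes 18 were on the array and 11 lay under both floors, among them Col1a1 (2.0 on plastic and 2.8 on dentin), Dspp (0.8 and 1.2), Dmp1 (4.2 and 1.1) and Ibsp (0.7 and 1.1). Their summed intensity was 172.2 (BMM), 390.9 (pOC), 227.7 (mOCp) and 333.1 (mOCd). Dcn, encoding the matrix proteoglycan decorin, read 8.8, 196.1, 55.0 and 127.3 and was the 1 gene of the list that was eligible, called higher. With the mean over probe sets 0 genes of the list were eligible, so the call of Dcn was lost. For B, T and NK cells 0 of the 15 markers on the array were eligible, and their sum was 125.1 on both arrays. Endothelial and adipocyte markers had 0 eligible, and dendritic and mast cell markers had 1, Itgax, which was not called. Of 5 eligible neutrophil genes 2 were lower, S100a8 (1112.6 and 506.8) and Lcn2 (367.9 and 102.7), with a list sum of 472.3 (BMM), 1027.1 (pOC), 2092.7 (mOCp) and 1140.5 (mOCd). Mpo, which defines neutrophil precursors, was near the floor on both (24.2 and 23.8). The part of neutrophil content in the lower genes was not tested either. Erythroid and megakaryocyte markers summed to 2129.9 (BMM), 1614.6 (pOC), 2566.7 (mOCp) and 1392.5 (mOCd), lower on dentin. Most of each sum was Pf4, a platelet chemokine (2370.0 on plastic, 1236.7 on dentin), which with Ppbp (99.9 and 58.3) made up the 2 eligible members, both below zero and neither called. The erythroid gene Alas2 was under both floors. The part of such cells in the lower genes was not tested.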

How the data were processed

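Total RNA was extracted with TRIzol, labelled with biotin and hybridised to 4 one-colour mouse expression arrays, 1 each for BMM, pOC, mOCp and mOCd. The deposited values are linear intensity per probe set, made by the authors with MAS5, per the submitters' processing notes; its version and any genome build are not given in the sources used here. The trimmed mean, leaving out 2% at each end, was 100.0 on each array. Array intensities carry no read depth, and 1 array per group limits the precision. MAS5 subtracts mismatch signal and can distort dim values, which is why a floor was set.

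Of 45037 non-control probe sets, 34945 have 1 gene symbol in the platform annotation of 2016, 932 have several and 9160 are not listed. The 18193 genes include 18032 matched to RefSeq by Entrez number. Each gene took its brightest probe set, each array was floored at its median, and log2 ratios were computed with Python 3.11.15, numpy 2.4.6 and pandas 2.3.3. A call needed 2-fold and a brighter value at the 75th percentile. The script was tested on simulated data.

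Genes named are the 12 highest and 12 lowest called ratios above both floors, up to 6 per side at the floor with at least 4-fold, 10 per side with the largest least ratio over probe sets, any list member and Cthrc1, without clone names. The members and the 52 lists were chosen with earlier results of these data known. The design cannot support a test, so none was run, and 11 alternatives were computed.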

Additional observations from a re-analysis of the deposited data

Results flagged for a closer look

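Probe sets outside the gene comparison also carried signal above the level on plastic. Of 623 eligible probe sets with no listed gene, 144 were at least 2-fold higher on dentin and 18 lower. Of 11128 eligible probe sets with 1 gene, 365 were higher and 427 lower, although the dimmest further probe sets among these leaned higher too. Of 408 eligible probe sets listed under several genes, 4 were at least 2-fold higher on dentin and 18 lower, so these leaned the other way. The cause of either split was not tested.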

How the results depend on the processing

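Each comparison rests on 1 array per surface, and ratios near the floor or near 2-fold are the least secure. With the brightness limit at the 60th percentile, 319 genes were higher and 331 lower and 76.4% of called genes with further probe sets had the same direction there, and at the 85th percentile these were 79, 95 and 90.7%. A 3-fold threshold left 32 higher and 35 lower. Quantile normalization gave 139 higher and 190 lower, and spike-in scaling 193 and 146. Some list medians turned sign: coupling factors -0.041 with a floor at the 25th percentile, dendritic and mast cell markers 0.022 with a floor at the 65th percentile and 0.061 with the mean over probe sets, BCL2 genes -0.066 with that mean and -0.027 without suffixed probe sets, class II MHC genes 0.036 and 0.241 in the same order, and extracellular matrix genes 0.012 without suffixed probe sets. Bak1 turned to -0.187 with the mean over probe sets. The cause of these changes was not tested. Of 90 named or list genes with a call, 79 had a value under each of the 8 alternatives that were computed for single genes, and 52 of these kept call and direction under each. A list median counted as reversed if its sign changed and it had lain clear of zero. Clear meant farther than the probe-set SD divided by the square root of its number of measured members. By that rule 47 of 52 list medians did not reverse under 8 alternatives. Medians nearer zero also changed sign and are not counted as reversed, among them those of the V-ATPase (-0.017 to 0.154) and TGF-β (-0.133 to 0.139) lists. No paired analysis was possible because each group has 1 array.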

Other observations

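The sex-linked transcripts were alike on the mature arrays. Eif2s3y, a Y-linked translation factor, read 491.9 (BMM), 456.5 (pOC), 386.2 (mOCp) and 388.2 (mOCd), and Xist, the X-inactivation RNA of female cells, read 21.2, 15.0, 13.2 and 19.3, close to the floors.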
